A study of Homo sapiens with 30 samples.

Results

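TNF (ENSG00000232810), IL1B, CXCL8, CCL2, CCL3, CCL4, NFKBIA, TNFAIP3, NFKB1 and NFKB2 were followed in all 10 groups of libraries. These 10 genes, inflammatory cytokines and chemokines with NF-kB subunits and feedback inhibitors, were picked by name because TNF moved in opposite ways in the knockouts of 2 cell lines, out of 60675 genes in the table of the overexpression series and 58051 in that of the knockout series. All libraries were made from human cell lines of acute myeloid leukemia (AML). For overexpression (OE), an EF1α-GFP lentivirus brought sequence from the MIR1-2 host gene into MV4-11 and Molm-14, and cells with the empty GFP vector were the controls (EV). For the knockout (KO), done in MV4-11, Molm-14 and THP-1, a lentiviral CRISPR/Cas9 vector with a GFP marker carried 1 guide against MPC1, a subunit of the mitochondrial pyruvate carrier, and the controls (EV) had the empty vector. MV4-11 and Molm-14 carry an internal tandem duplication in the FLT3 gene, whereas THP-1, a monocytic line, does not. Each group had 3 libraries. The labels do not say whether these were separate infections, clones or cultures, so the tests measure the spread between these libraries, which may be technical.

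TNF is a cytokine made mainly by monocytes and macrophages. Its receptors, like those of IL-1 and the Toll-like receptors, activate a kinase complex that marks the inhibitor encoded by NFKBIA for breakdown, which frees NF-kB dimers to enter the nucleus. NF-kB then induces cytokine and chemokine genes together with its own brakes, NFKBIA and the ubiquitin-editing enzyme encoded by TNFAIP3, and NFKB1 and NFKB2 encode precursors of NF-kB subunits.

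Sequences before the start sites of these genes are shown because NF-kB acts through DNA sites near the genes it regulates. Promoters of 8 of the 10 genes, from 250 bases before to 50 after the start, were found in RefSeq on GRCh38.p14, and CCL2 and CCL4 were not among them. The NF-kB consensus, searched on both strands, matched a listed promoter of 4 of the 8 genes, NFKBIA, TNFAIP3, NFKB1 and NFKB2. It matched 11.3% of all 35093 promoters in the table. That is a share of promoters and not of genes, and a gene can have several, so the 4 of 8 cannot be set directly beside it. Counting both strands and overlapping matches, NFKB2 had 7 in 2 of its 3 listed promoters, and the 3 in the window shown overlap each other. The related sequence GGAATTTCC, which can overlap the consensus, was found on either strand in 0.462% of promoters and in those of CXCL8, NFKBIA and NFKB1. In the windows that follow, matches are in capitals and each sequence runs 5′ to 3′ on the strand of its gene.
NFKBIA at chr14:35404811-35404840, minus strand: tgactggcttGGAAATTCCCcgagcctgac
TNFAIP3 at chr6:137867188-137867217, plus strand: ctttGGAAAGTCCCgtGGAAATCCCCgggc
NFKB1 at chr4:102501300-102501329, plus strand: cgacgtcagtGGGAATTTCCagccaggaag
NFKB2, before its second listed start, at chr10:102394462-102394491, plus strand: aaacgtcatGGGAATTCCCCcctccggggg
CXCL8 at chr4:73740468-73740497, plus strand: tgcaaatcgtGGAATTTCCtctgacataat
The NFKBIA match began 81 bases before the start, the pair in TNFAIP3 67 bases before it, the NFKB1 match 49 bases, the NFKB2 match 107 bases and the CXCL8 match 91 bases before it.

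The promoters of TNF, IL1B and CCL3 held no match to either sequence. On GRCh38 (GENCODE release 44), TNF lies at chr6:31575565-31578336 (+), IL1B at chr2:112829751-112836816 (-), CXCL8 at chr4:73740519-73743716 (+), NFKBIA at chr14:35401079-35404749 (-), TNFAIP3 at chr6:137867214-137883314 (+), NFKB1 at chr4:102501330-102617302 (+) and NFKB2 at chr10:102394110-102402524 (+). The 3 CC chemokine genes lie on chromosome 17, CCL2 at chr17:34255274-34257208 (+), CCL3 at chr17:36088256-36090169 (-) and CCL4 at chr17:36103827-36105621 (+). The 150 bases before its start are shown because TNF is the gene that chose this family, with the only match to a looser pattern, GGG and CC with any 5 bases between them, in capitals.
TNF at chr6:31575415-31575564, plus strand: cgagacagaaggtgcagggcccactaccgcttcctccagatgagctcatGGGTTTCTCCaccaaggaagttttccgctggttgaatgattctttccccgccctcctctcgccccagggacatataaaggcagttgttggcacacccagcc
That pattern began 101 bases before the start. It was found in 58.7% of all promoters, so its presence is a description of the sequence only.

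The overexpression vector was made to raise miR-1, whose mature sequence (RefSeq, from MIR1-1 at chr20:62554351-62554372, plus strand) is shown with its seed, bases 2 to 8, in capitals.
hsa-miR-1-3p: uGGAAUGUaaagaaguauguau
The 7-base match to this seed was found in the 3′ UTR of 1 of the 10 genes, CCL2, and in 11.7% of 19548 canonical 3′ UTRs in GENCODE release 44. The CCL2 match began at base 293 of a 3′ UTR of 376 bases and was followed by an A. Its 30-base window is shown with the match in capitals.
CCL2 at chr17:34257109-34257138, plus strand: aattttttttaACATTCCaatgcattgcta

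The libraries of the overexpression series held 15543301 to 20939985 counts each, and those of the knockout series 5339360 to 9106478. MPC1, the targeted gene, was lower in KO than in EV in all 3 lines, at 24.8 ± 1.26 against 56.1 ± 2.33 CPM (counts scaled to library size, mean ± SD, n = 3) in MV4-11, 37.4 ± 3.92 against 77.3 ± 3.85 CPM in Molm-14 and 54.1 ± 4.41 against 97.0 ± 5.52 CPM in THP-1. The lines expressed myeloid genes. Of the 11 myeloid markers, the summed level was 382 to 1724 CPM among overexpression libraries and 511 to 7863 CPM among knockout libraries, whereas 10 markers of T, B, erythroid, epithelial, fibroblast and endothelial cells summed to at most 2.71 CPM in any library. CD14, a monocyte marker, was near 0 in MV4-11 and Molm-14, with group means from 0.100 to 0.298 CPM, and was at 3.31 CPM in THP-1. After the filter on low counts, 9 of the 10 genes could be tested in the overexpression series (all but CCL4) and 8 in the knockout series (all but CCL3 and CCL4).

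A pair of MV4-11 libraries in the overexpression series, OE replicate 1 and EV replicate 3, stood apart in these genes. The pair was picked after seeing the data, so the counts that follow describe it and are not a test. In 7 of the 9 genes tested, TNF, CXCL8, CCL2, CCL3, TNFAIP3, NFKB1 and NFKB2, both were above each of the other 4 MV4-11 libraries of that series, which held for 15.7% of all genes tested. CCL3, a chemokine for monocytes and lymphocytes, was at 8.78 CPM in OE replicate 1 and 4.60 in EV replicate 3, against 0.111 to 1.03 CPM in the others. CCL2, the main monocyte attractant, was at 7.53 and 4.71 CPM against 0.927 to 1.45. CCL4 had 11 and 6 counts against at most 1. The same held for 26 of the 64 other pathway genes tested, for 8 of 8 immediate-early genes and for 13 of 13 interferon-stimulated genes. MX1, an interferon-induced antiviral gene, was at 74.4 CPM in OE replicate 1 and 8.72 in EV replicate 3, against 0.386 to 1.16 in the others. IL6, which was too low to be tested, was at 0.717 and 0.412 CPM in these libraries and had 0 counts in the other 4. Myeloid markers also stood at other levels in this pair. LYZ, lysozyme, was at 538 and 528 CPM against 861 to 1246 in the others, and S100A8 and S100A9 were likewise lower in both. CSF1R, FCGR1A and ITGAM were higher in both than in each of the others, and the 11 markers summed to 1039.8 and 1051 CPM against 1351 to 1724. Their part in the values of the members was not tested. One is labelled OE and the other EV, so the comparisons with MV4-11 in that series are given with and without them.

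**Figure D1:**
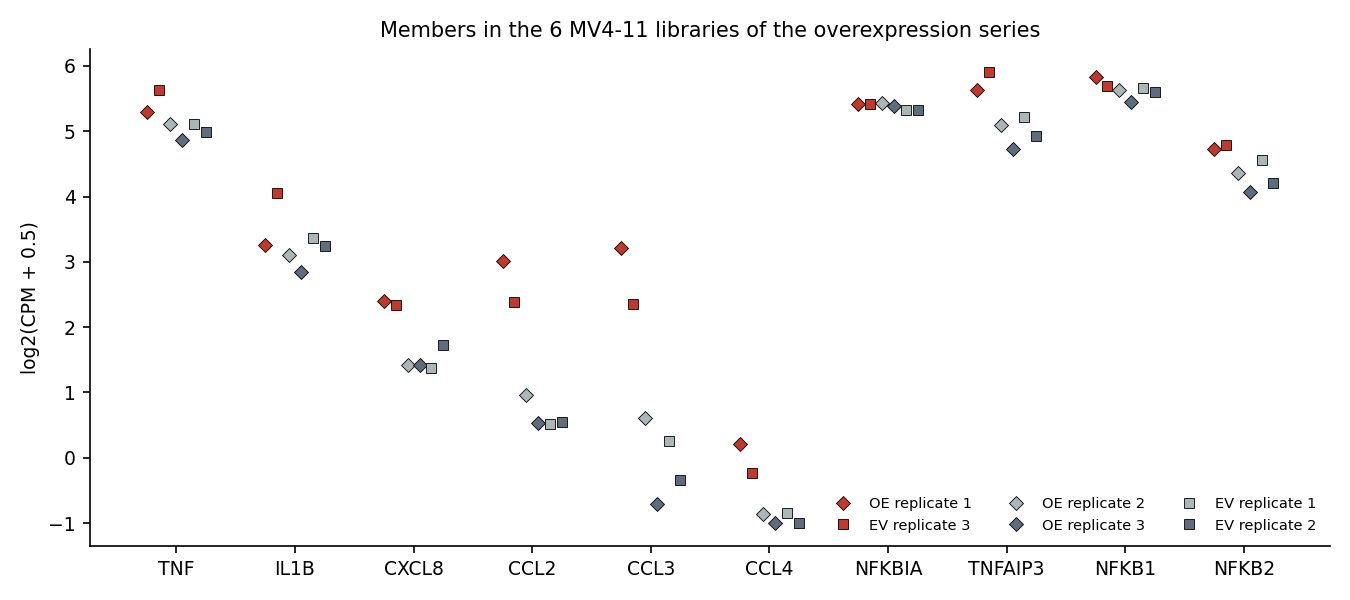
Level of each gene, as log2(CPM + 0.5), in the 6 MV4-11 libraries of the overexpression series; diamonds are OE, squares are EV, and red marks OE replicate 1 and EV replicate 3. Both red points lie above the 4 others for TNF, CXCL8, CCL2, CCL3, CCL4, TNFAIP3, NFKB1 and NFKB2, whereas the libraries overlap for IL1B and NFKBIA.

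Per kilobase of exon, TNF and NFKBIA were the highest in MV4-11 and Molm-14, at 22.7 ± 5.69 and 11.9 ± 0.466 CPM per kb in MV4-11 EV and 22.1 ± 2.00 and 8.06 ± 0.639 CPM per kb in Molm-14 EV of the overexpression series (mean ± SD, n = 3). In the EV libraries of the knockout series, TNF was at 9.29 ± 0.518 CPM per kb in Molm-14 and 1.11 ± 0.175 in THP-1, and NFKBIA at 8.89 ± 0.428 and 11.2 ± 1.04 CPM per kb. The other members were lower per kb than NFKBIA in all 5 EV groups, apart from TNF. The length was that of all annotated exons of a gene joined, 1678 bases for TNF and 15679 for NFKB1. A transcript can be shorter, so this order of genes depends on the length used. In CPM, NFKB1 was above TNF in Molm-14 EV of the overexpression series (89.2 ± 1.55 against 37.1 ± 3.36). The 2 series were normalized separately, so levels were not compared between them. CCL4, a chemokine encoded beside CCL3 on chromosome 17, had 0 counts in every Molm-14 library of both series and in every MV4-11 library of the knockout series, where a count of 0 allows up to 3 counts. In THP-1 it had 1 count in KO replicate 1 and 0 in the others, and in MV4-11 of the overexpression series 11, 1 and 0 counts in OE and 1, 0 and 6 in EV. CCL3 and CCL4 have near-identical copies, CCL3L3 and CCL4L2, and reads shared with them could have been split or lost, so the values of both are uncertain.

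**Figure D2:**
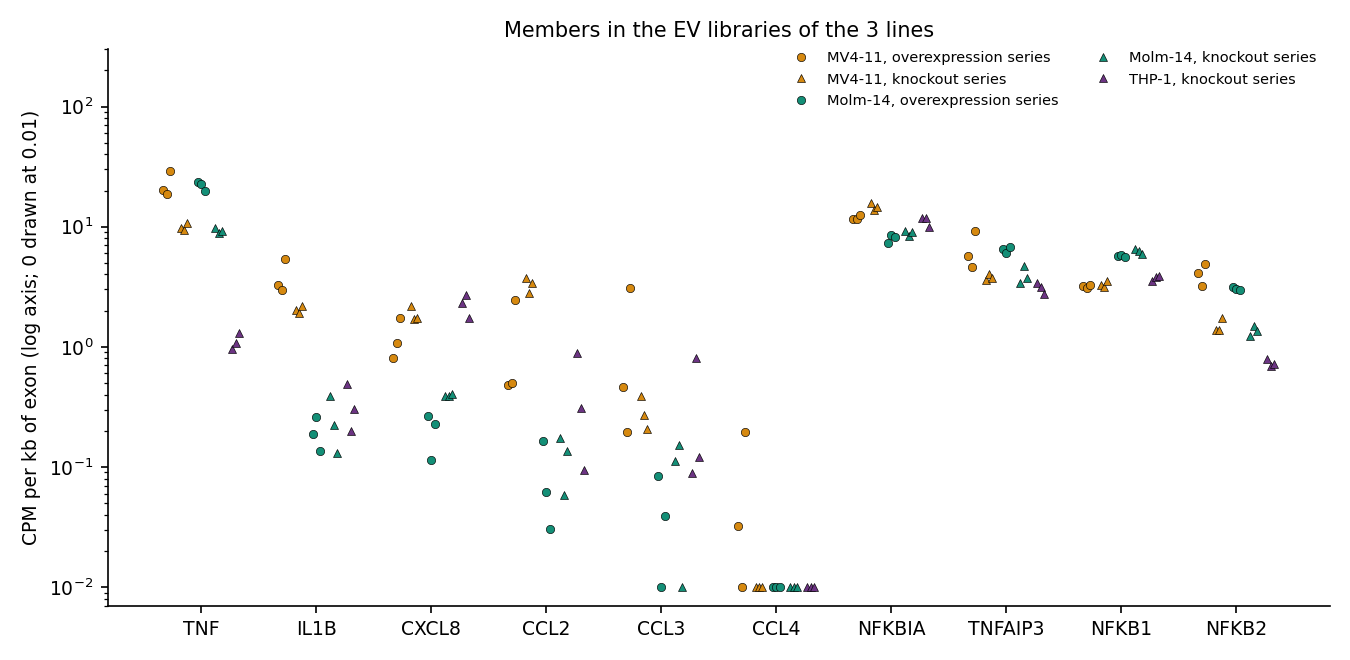
CPM per kb of exon, on a log axis, of the 10 genes in each EV library; circles are the overexpression series, triangles the knockout series, and colours the 3 lines, with 0 drawn at 0.01. TNF in THP-1 (1.11 ± 0.175) lies below the other lines, whereas NFKBIA in THP-1 (11.2 ± 1.04) lies among the values of the other lines.

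MV4-11 EV had more IL1B, CXCL8 and NFKBIA mRNA than Molm-14 EV and less NFKB1, and no difference in TNF was detectable. In the overexpression series, which the choice of genes had not used, 5 of the 9 genes tested differed between MV4-11 EV and Molm-14 EV past an FDR of 5%, 4 higher and 1 lower in MV4-11, where 64.8% of all genes differed (32.9% higher and 31.9% lower), so the members did not differ more often than genes in general. IL1B, which encodes the inflammasome-processed cytokine IL-1β, was at 9.85, 8.97 and 16.1 CPM in MV4-11 EV and at 0.568, 0.777 and 0.409 CPM in Molm-14 EV. The groups did not overlap, and the difference was 4.30 ± 0.280 on the log2 scale (estimate ± SE; edgeR FDR = 4.41e-11). CXCL8, a neutrophil attractant, was at 2.08, 2.80 and 4.54 CPM in MV4-11 EV against 0.694, 0.299 and 0.585 in Molm-14 EV, a log2 difference of 2.56 ± 0.425 (edgeR FDR = 3.18e-05).

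The inhibitor gene NFKBIA was modestly higher in MV4-11 EV, with 39.5, 39.5 and 42.2 CPM against 24.9, 29.1 and 28.0, a log2 difference of 0.56 ± 0.0753 (edgeR FDR = 1.76e-06). NFKB1 was the member lower in MV4-11 EV, with 49.9, 48.2 and 51.3 CPM against 89.1, 90.8 and 87.7, a log2 difference of -0.84 ± 0.0716 (edgeR FDR = 2.64e-09). NFKB2, at 23.0, 17.9 and 27.2 CPM against 17.6, 16.9 and 16.5, passed with an edgeR FDR of 0.0366, but leaving out any 1 of 5 of the 6 EV libraries ended this call. TNF was at 33.9, 31.4 and 49.1 CPM in MV4-11 EV and at 39.8, 38.1 and 33.3 CPM in Molm-14 EV, a log2 difference of 0.04 ± 0.181 (edgeR FDR = 0.873), and the groups overlapped.

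Without MV4-11 OE replicate 1 and EV replicate 3, the differences in IL1B (3.99 ± 0.254), CXCL8 (2.21 ± 0.384), NFKBIA (0.53 ± 0.0808), NFKB2 (0.26 ± 0.114) and NFKB1 (-0.86 ± 0.0592) on the log2 scale were still called. TNFAIP3 was at 42.1 ± 15.5 CPM in MV4-11 EV, with 59.6 CPM in replicate 3, against 41.8 ± 2.53 in Molm-14 EV, with a log2 difference of 0.00 ± 0.282 (edgeR FDR = 0.991), and it was called lower in MV4-11, with a log2 difference of -0.33 ± 0.0970 (edgeR FDR = 0.00492), when the pair was left out. CCL2 had 16, 20 and 80 counts in MV4-11 EV against 5, 2 and 1 in Molm-14 EV, and CCL3 had 12, 6 and 78 against 2, 0 and 1. Neither passed with all libraries (edgeR FDR = 0.074 for CCL2 and 0.0999 for CCL3), and both passed without the pair (edgeR FDR = 8.75e-04 for CCL2 and 0.0114 for CCL3). The pair was chosen after seeing that it was high in such genes, and leaving it out can shrink their spread. All calls made without it are therefore a description.

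Of the 64 other pathway genes tested, 40 differed between these EV groups, 27 higher and 13 lower in MV4-11, where 64.8% of all genes differed. With the 5 members, 45 were called, and 54 without the pair, where 5901 of all 17866 genes were called higher and 5825 lower. By class, 10 of 11 receptors differed, 9 of them higher in MV4-11, as did 13 of 20 adaptors and kinases, 8 of 15 NF-kB subunits and feedback inhibitors, 6 of 11 other induced targets and 3 of 7 cytokines and chemokines. The classes were not tested against each other. CCR2, the receptor of CCL2, was at 146 ± 5.65 CPM in MV4-11 EV against 17.3 ± 0.307 in Molm-14 EV, a log2 difference of 3.08 ± 0.0662 (edgeR FDR = 1.06e-18). TLR4, the lipopolysaccharide receptor, and CCR1 and CXCR2, receptors of inflammatory chemokines, were also higher, by 3.63 ± 0.175, 2.90 ± 0.153 and 2.54 ± 0.198 on the log2 scale. TNIP3, which encodes a partner of the TNFAIP3 protein, was at 0.463, 0.675 and 0.648 CPM in MV4-11 EV and at 0 in all Molm-14 EV libraries, at least 9.87-fold higher against a floor of 3 counts over the group.

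The 13 genes lower in MV4-11 included CHUK, a kinase of the NF-kB-activating complex, with a log2 difference of -0.75 ± 0.0544, and 4 of the 11 other induced targets tested. TNFAIP8, at 8.86, 10.6 and 9.37 CPM in MV4-11 EV against 45.6, 45.3 and 42.8 in Molm-14 EV, had a log2 difference of -2.21 ± 0.105 (edgeR FDR = 2.84e-13). PTGS2, the inducible prostaglandin synthase, CD40 and CXCL2 had log2 differences of -2.20 ± 0.324, -1.95 ± 0.462 and -2.34 ± 0.636, and of -2.53 ± 0.348, -2.54 ± 0.502 and -3.17 ± 0.792 without the pair. BCL2A1, a survival gene of the BCL2 family, was at 0, 0 and 0.0589 CPM in MV4-11 EV against 2.08, 0.956 and 0.936 CPM in Molm-14 EV.

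THP-1 had less TNF mRNA than either of the other lines. TNF was at 1.60, 1.79 and 2.17 CPM in THP-1 EV of the knockout series, with 12 counts in each library, whereas MV4-11 EV had 16.5, 15.8 and 18.2 CPM and Molm-14 EV 16.5, 14.7 and 15.6 CPM. No test was made of TNF here, because the EV libraries of MV4-11 and Molm-14 were among those that chose it. In bulk RNA, fewer cells that make a transcript and less transcript per cell cannot be told apart. Of the 7 other genes tested, 4 were lower in THP-1 EV than in MV4-11 EV past an FDR of 5% and none higher, where 67.5% of all genes differed (32.9% lower). The log2 difference was -2.58 ± 0.304 for IL1B (edgeR FDR = 2.76e-08), -2.80 ± 0.355 for CCL2, -1.02 ± 0.185 for NFKB2 and -0.38 ± 0.104 for NFKBIA. The CCL2 difference was -3.92 without THP-1 EV replicate 1 and was still called. NFKB1 (0.17 ± 0.0838) and TNFAIP3 (-0.28 ± 0.133) were not called, but NFKB1 passed with RLE scaling, in DESeq2 and without MV4-11 EV replicate 3 (0.22 in each), and TNFAIP3 without THP-1 EV replicate 1 (-0.35).

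Against Molm-14 EV, 6 of the 7 genes differed, 3 higher and 3 lower in THP-1, where 69.6% of all genes did (35.5% higher and 34.1% lower). CXCL8 was at 5.98, 7.03 and 4.53 CPM in THP-1 EV against 1.01, 1.01 and 1.05 in Molm-14 EV, a log2 difference of 2.50 ± 0.301 (edgeR FDR = 3.43e-08). THP-1 EV and MV4-11 EV overlapped in CXCL8, with a log2 difference of 0.27 ± 0.224 (edgeR FDR = 0.297). NFKBIA (0.35 ± 0.108) and CCL2 (1.94 ± 0.695) were higher in THP-1 than in Molm-14, and NFKB1 (-0.74 ± 0.0815), NFKB2 (-0.89 ± 0.187) and TNFAIP3 (-0.36 ± 0.132) were lower. The CCL2 call rested on 13, 4 and 1 counts in THP-1 EV and ended without its replicate 1 (log2 difference 0.82, edgeR FDR = 0.405) or without Molm-14 EV replicate 2 (1.55, edgeR FDR = 0.075). The TNFAIP3 call ended without Molm-14 EV replicate 2 (-0.21, edgeR FDR = 0.187), without THP-1 EV replicate 3 (-0.29, edgeR FDR = 0.0806) and in DESeq2 (-0.30, adjusted p = 0.0859).

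Other pathway genes that separated THP-1 from both lines included IL1R1, the signalling receptor of IL-1, and ICAM1, a leukocyte adhesion molecule induced by TNF. IL1R1 was at 5.85, 5.53 and 7.61 CPM in THP-1 EV and at 0 in all MV4-11 EV libraries, at least 47.6-fold higher against a floor of 3 counts over the group. ICAM1 was at 0.798, 0 and 1.09 CPM in THP-1 EV, 4.41, 5.39 and 4.93 CPM in MV4-11 EV and 28.9, 28.8 and 29.3 CPM in Molm-14 EV. CXCL10, an interferon-induced chemokine, was at 0 in all THP-1 EV libraries against 6.22, 4.05 and 6.86 CPM in Molm-14 EV, at least 37.7-fold lower against the same floor. Of the 62 pathway genes tested, 42 differed from MV4-11 EV, 18 higher and 24 lower in THP-1, where 67.5% of all genes did, and 41 from Molm-14 EV, 23 higher and 18 lower, where 69.6% did.

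MPC1 KO was accompanied by the highest TNF level of the knockout series in Molm-14 and by a slightly lower level in MV4-11. These values chose the genes, so those of the members in both KO comparisons are a description, with no test. In Molm-14, TNF was at 43.6, 42.2 and 33.0 CPM in KO against 16.5, 14.7 and 15.6 CPM in EV, and every KO library was above every EV library. The log2 fold change was 1.35 ± 0.127 (estimate ± SE), or 2.55-fold. In MV4-11, TNF was at 13.9, 14.9 and 12.3 CPM in KO against 16.5, 15.8 and 18.2 CPM in EV, with every KO library below every EV library. The log2 fold change was -0.29 ± 0.136. Leaving out any 1 library gave log2 fold changes from 1.28 to 1.46 in Molm-14 and from -0.35 to -0.22 in MV4-11.

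In order of TNF level, Molm-14 KO (39.6 ± 5.78 CPM) was followed by MV4-11 EV (16.8 ± 1.25), Molm-14 EV (15.6 ± 0.869), MV4-11 KO (13.7 ± 1.31), THP-1 KO (2.18 ± 0.315) and THP-1 EV (1.85 ± 0.294; mean ± SD, n = 3). The libraries of MV4-11 EV and Molm-14 EV overlapped, as did those of Molm-14 EV and MV4-11 KO and the 2 THP-1 groups. In the overexpression series the order was MV4-11 EV (38.1 ± 9.55 CPM), Molm-14 EV (37.1 ± 3.36), Molm-14 OE (36.8 ± 5.18) and MV4-11 OE (33.9 ± 5.03), and all neighbours overlapped.

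**Figure D3:**
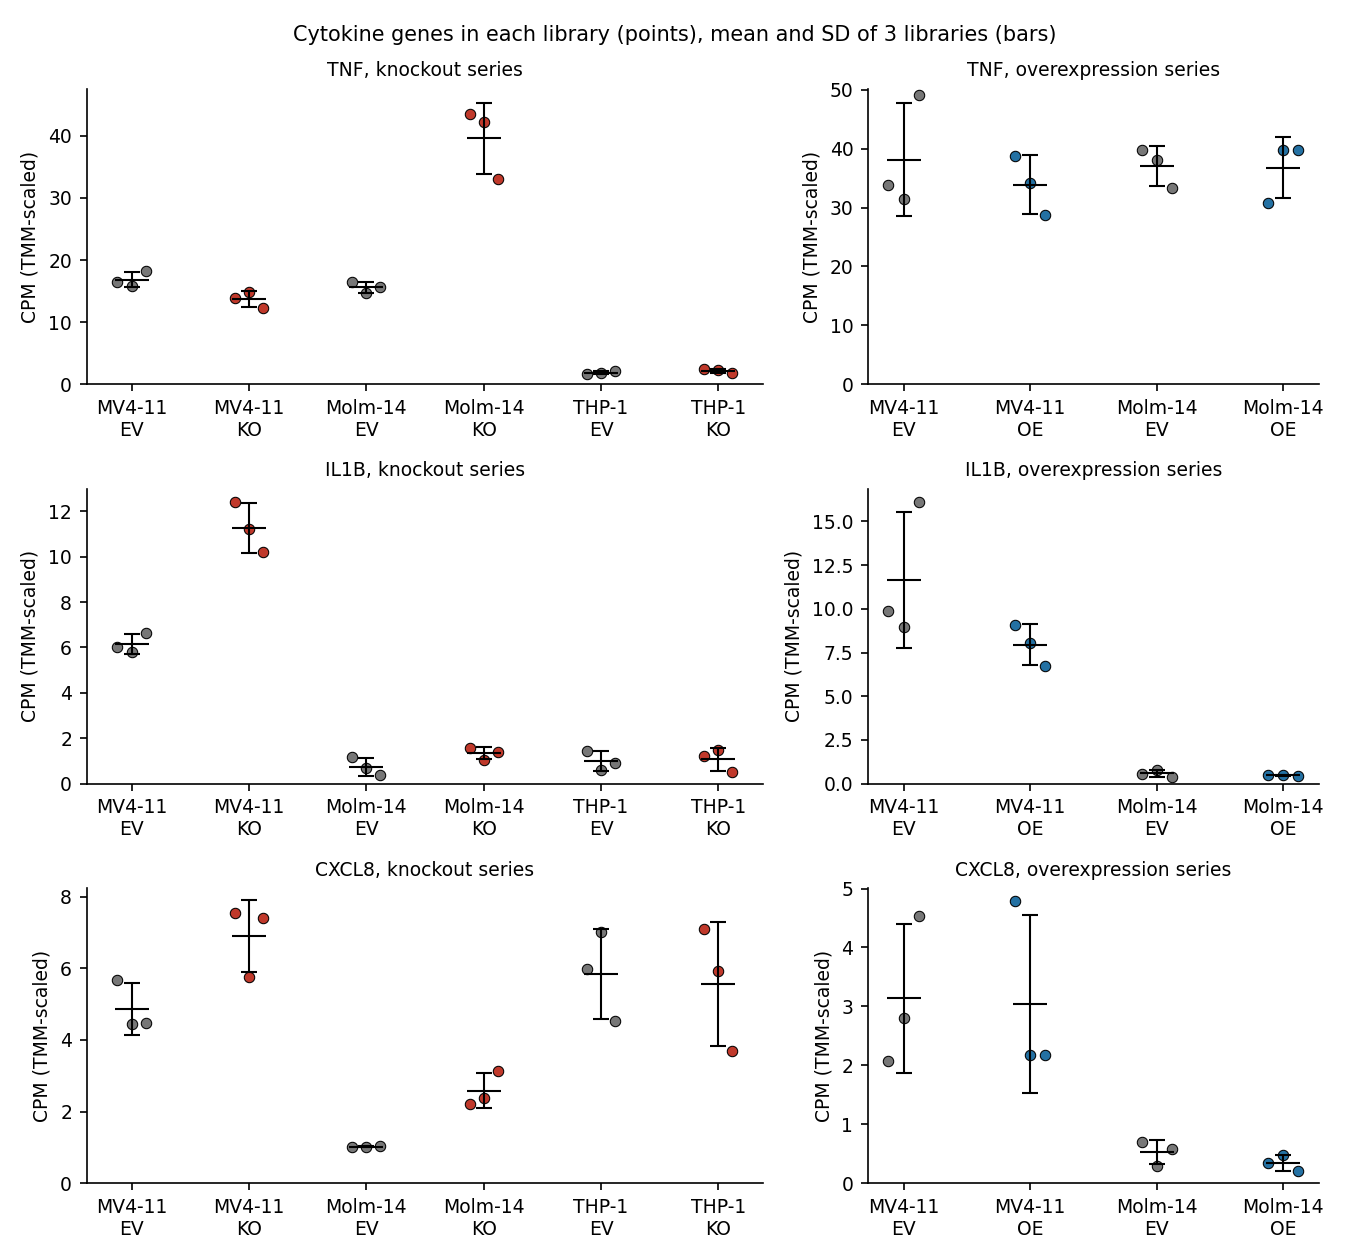
TNF, IL1B and CXCL8 in CPM in each library (points) of the knockout series (left) and overexpression series (right), with the mean and SD of 3 libraries as bars; grey is EV, red KO and blue OE. TNF is highest in Molm-14 KO (33.0 to 43.6 CPM) in the knockout series, IL1B is higher in MV4-11 KO (10.2 to 12.4 CPM) than in MV4-11 EV, and the OE and EV libraries overlap in each line.

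The other cytokine genes did not follow TNF in direction in MV4-11. IL1B was at 12.4, 11.2 and 10.2 CPM in MV4-11 KO against 6.04, 5.79 and 6.63 CPM in EV, with a log2 fold change of 0.87 ± 0.194 and no overlap. CXCL8 was at 7.54, 5.76 and 7.42 CPM in MV4-11 KO against 5.69, 4.44 and 4.47 CPM in EV, with a log2 fold change of 0.49 ± 0.213 and no overlap. In Molm-14, CXCL8 was at 2.21, 2.39 and 3.13 CPM in KO against 1.01, 1.01 and 1.05 CPM in EV, which gave a log2 change of 1.31 ± 0.352 from 14 to 20 counts per KO library and 6 to 9 per EV library. IL1B had only 8 to 10 counts per library in Molm-14 KO and 3 to 7 in EV, the groups overlapped, and the log2 fold change was 0.88 ± 0.435.

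CCL2 was at 6.40, 7.14 and 4.90 CPM in MV4-11 KO and at 7.20, 5.39 and 6.63 CPM in EV, with a log2 fold change of -0.06 ± 0.241. In Molm-14 it had at most 2 counts in any library of the knockout series. CCL3 had 7, 6 and 7 counts in MV4-11 KO against 5, 3 and 2 in EV, and at most 2 in Molm-14.

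Among the NF-kB subunits and feedback genes, NFKBIA and NFKB1 lay near 0 in both KO comparisons, whereas NFKB2 was lower in MV4-11 KO than in EV without overlap. NFKBIA had log2 fold changes of 0.05 ± 0.101 in MV4-11 and 0.11 ± 0.109 in Molm-14, and NFKB1 of 0.01 ± 0.0835 and 0.00 ± 0.0790. TNFAIP3 was at 25.3, 31.1 and 29.5 CPM in MV4-11 KO against 23.0, 26.1 and 24.1 CPM in EV and at 31.2, 29.5 and 31.6 CPM in Molm-14 KO against 21.9, 30.4 and 24.3 CPM in EV, with overlap in both lines and log2 fold changes of 0.24 ± 0.126 and 0.26 ± 0.126. NFKB2 was the member besides TNF whose MV4-11 KO libraries all lay below EV, at 6.12, 5.76 and 6.41 CPM against 7.78, 7.67 and 9.71 CPM, a log2 fold change of -0.45 ± 0.168. In Molm-14 its groups overlapped, with a log2 fold change of -0.15 ± 0.171. The groups did not overlap for 4 of the 8 in MV4-11 beside 24.1% of all genes, and for 2 of the 8 in Molm-14 beside 16.4%. Nothing is read from these counts, since the same contrasts chose the genes.

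**Figure D4:**
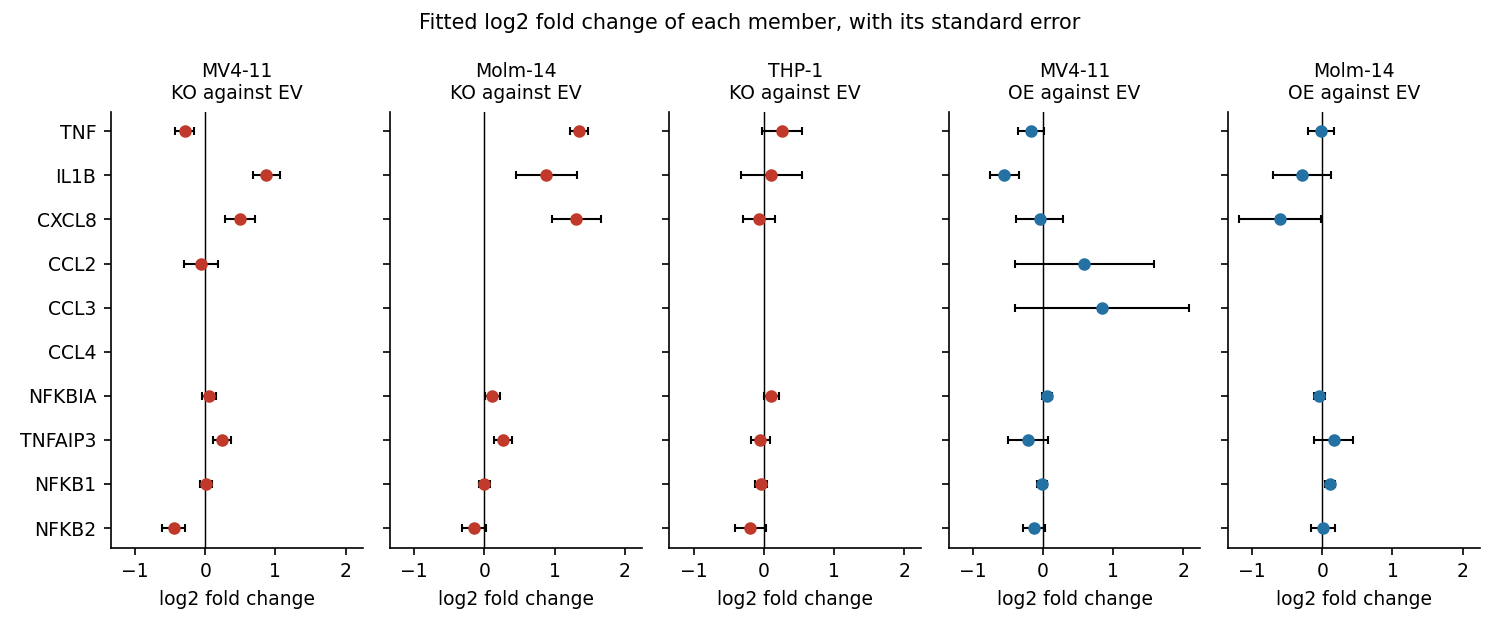
Fitted log2 fold change of each gene in the 5 comparisons with EV of the same line, with its standard error as a bar; red is KO and blue is OE, and genes with too few counts for a fold are left out. TNF lies at 1.35 in Molm-14 KO and at -0.29 in MV4-11 KO, and NFKBIA and NFKB1 lie close to 0 in all 5 comparisons.

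In THP-1, no member differed between KO and EV past an FDR of 5% (0 of 8 tested, 0 at an unadjusted p under 0.05 and 0 by DESeq2), where 0.0897% of all genes did. This comparison had not been used to choose the genes. TNF was at 2.47, 2.23 and 1.84 CPM in KO against 1.60, 1.79 and 2.17 CPM in EV, which gave a log2 change of 0.26 ± 0.285 (edgeR FDR = 0.861), from 11 to 16 counts per library. CXCL8 was at 7.10, 5.94 and 3.69 CPM in KO against 5.98, 7.03 and 4.53 CPM in EV, with a log2 fold change of -0.07 ± 0.224 (edgeR FDR = 0.95). The groups overlapped in both genes. IL1B (0.11 ± 0.439), NFKBIA (0.11 ± 0.106), TNFAIP3 (-0.05 ± 0.138), NFKB1 (-0.04 ± 0.0841) and NFKB2 (-0.19 ± 0.218) had log2 fold changes of about their own error or less. Of the 8, 1 did not overlap (NFKB2, lower), beside 13.6% of all genes (6.79% lower). CCL2 had 4, 5 and 3 counts in KO and 13, 4 and 1 in EV, and CCL3 10, 1 and 6 in KO and 1, 8 and 1 in EV. A TNF difference as small as the -0.29 in MV4-11 was not detectable at this depth, since the standard error was 0.285.

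Of the other pathway genes, receptors for chemokines and TNF were higher in Molm-14 KO and an NF-kB subunit was lower. Of 62 tested, 5 were called, 4 of 12 receptors higher and REL lower, where 2.40% of all genes were called (1.34% higher). CCR2 was at a mean of 128 ± 3.91 CPM in KO against 56.6 ± 6.90 CPM in EV, with a log2 fold change of 1.18 ± 0.102 (edgeR FDR = 3.01e-08). CCR1 was at 47.9 ± 3.05 CPM against 21.3 ± 0.949 CPM, with a log2 fold change of 1.17 ± 0.0993 (edgeR FDR = 2.59e-08). CXCR2, a receptor of CXCL8, was at 5.85 ± 0.569 CPM against 3.21 ± 0.700 CPM (log2 fold change 0.90 ± 0.199, edgeR FDR = 0.00954), and TNFRSF1B, one of the receptors of TNF, at 45.9 ± 1.83 CPM against 32.2 ± 1.31 CPM (0.52 ± 0.118, edgeR FDR = 0.0124). REL, an NF-kB subunit, was lower, at 14.2 ± 0.997 CPM against 21.4 ± 3.22 CPM (-0.60 ± 0.141, edgeR FDR = 0.0152).

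The CCR1 and CCR2 calls held without any 1 of the 6 libraries. The call of CXCR2 ended without Molm-14 EV replicate 2 or KO replicate 2, that of REL without either of these or KO replicate 1, and that of TNFRSF1B without either, KO replicate 1 or EV replicate 3. Myeloid markers also stood at other levels in the same libraries. LYZ was at 626 ± 1.62 CPM in Molm-14 KO against 321 ± 32.1 CPM in EV, S100A8 at 12.6 ± 1.21 against 5.89 ± 0.750 CPM and S100A9 at 23.0 ± 1.24 against 10.5 ± 2.33 CPM, whereas MPO, the granule enzyme of earlier myeloid cells, was at 39.7 ± 3.28 against 85.9 ± 6.35 CPM. The 11 myeloid markers summed to 811 to 832 CPM in KO and 511 to 565 CPM in EV. LYZ made up most of both sums, so they do not show a rise across the markers. CD14 was at 0.297 ± 0.158 against 0.175 ± 0.0470 CPM. The part of the myeloid markers in the TNF and receptor differences was not tested.

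In MV4-11 KO, 3 of the 62 pathway genes were called, all higher, where 5.41% of all genes were called (3.17% higher). CCR1 was at 81.1 ± 3.19 CPM against 56.2 ± 4.75 CPM in EV, which gave a log2 change of 0.53 ± 0.0883 (edgeR FDR = 8.00e-04). ICAM1 was at 7.97 ± 0.864 CPM against 4.91 ± 0.488 CPM (0.70 ± 0.206, edgeR FDR = 0.0453) and BIRC2, an inhibitor of apoptosis that acts at the TNF receptor, at 89.0 ± 9.14 CPM against 69.3 ± 4.62 CPM (0.36 ± 0.0936, edgeR FDR = 0.0245). CCR1 kept its call without any 1 library, the ICAM1 call ended without any 1 of the 6 libraries, and the BIRC2 call ended without EV replicate 2 or 3 or KO replicate 1 or 2. Of the myeloid markers, SPI1, a myeloid transcription factor, was at 44.4 ± 5.22 CPM in MV4-11 KO against 61.4 ± 9.33 CPM in EV. Its edgeR FDR of 0.0486 was just under the threshold, and no fits without single libraries are given for it. MPO was at 6.48 ± 0.373 against 8.95 ± 0.276 CPM and ITGAM at 4.14 ± 0.383 against 2.94 ± 0.347 CPM, without overlap but not called, and LYZ at 6313 ± 479 against 6573 ± 839 CPM, with overlap. The 11 markers summed to 6144 to 7114 CPM in KO and 6293 to 7863 CPM in EV, and their part in these differences was not tested. No pathway gene was called in THP-1 KO (0 of 62 in edgeR and 0 in DESeq2), and 4 had an unadjusted p under 0.05, as did 1160 of all 14490 genes. The median log2 fold change of the pathway genes was 0.03 in MV4-11, 0.07 in Molm-14 and -0.01 in THP-1, beside 0.02, 0.00 and 0.00 over all genes tested.

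**Figure D5:**
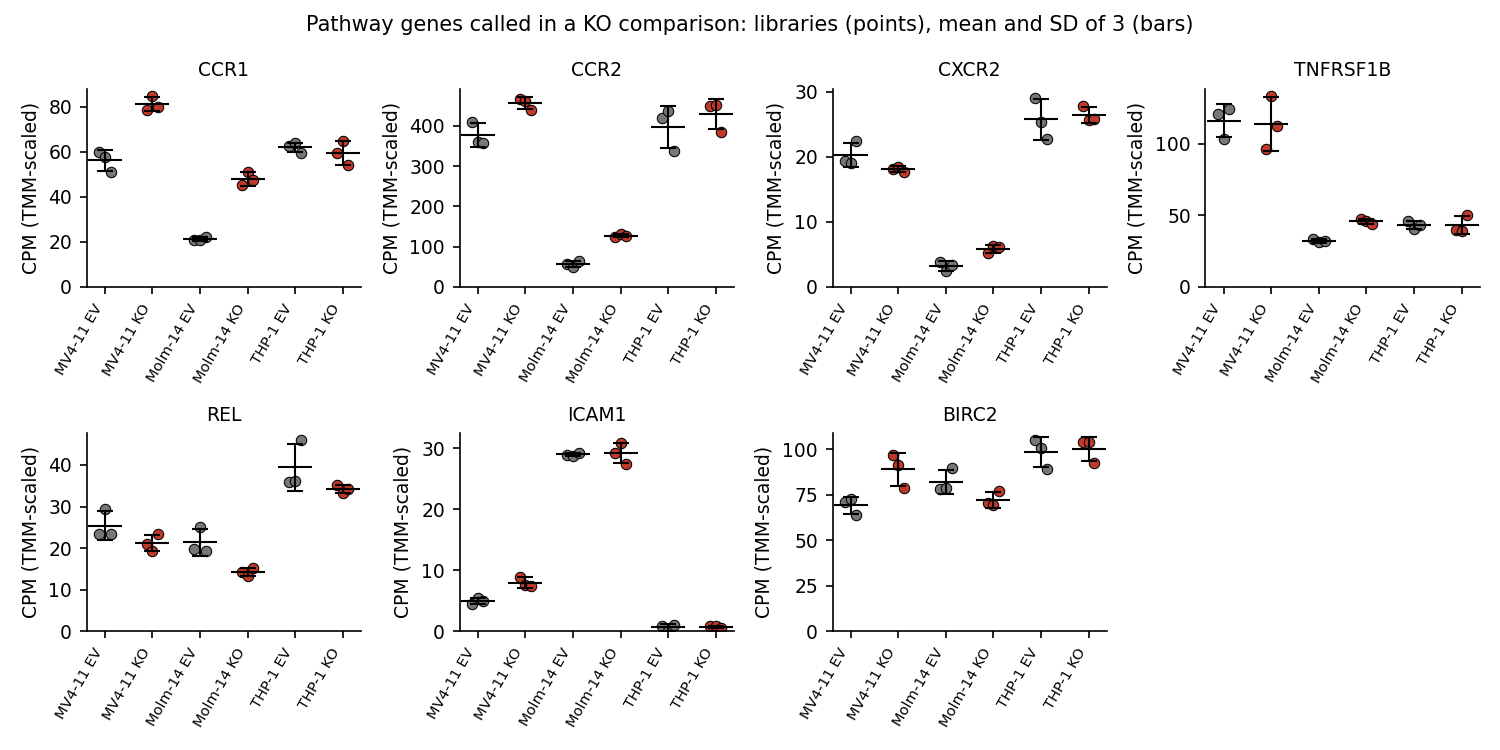
CPM in each library of the knockout series (points), with the mean and SD of 3 libraries as bars, for the 7 pathway genes called in at least 1 KO comparison; grey is EV and red is KO. CCR1 is higher in KO in both MV4-11 (81.1 against 56.2 CPM) and Molm-14 (47.9 against 21.3 CPM), and the THP-1 groups overlap for each gene but REL.

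The genes whose pattern was most like that of TNF were named among 9425 genes with a mean of at least 10 CPM, from the Pearson correlation of log2 CPM centred on each line over the 18 knockout libraries. They were BASP1 (r = 0.91), DPYSL2 (0.90), FOS (0.90), PAG1 (0.90) and NCS1 (0.90). Over the 12 overexpression libraries the same correlations were -0.47, 0.79, 0.74, 0.76 and 0.28. FOS, an immediate-early transcription factor, was at a mean of 13.7 CPM in Molm-14 KO and 7.22 CPM in Molm-14 EV. It was slightly lower in KO in MV4-11 (21.7 against 23.8 CPM) and in THP-1 (28.2 against 31.2 CPM). The named genes were picked for a high r over libraries that include those that chose TNF. The points also share lines and vectors, so these correlations are a description. Among the members, CXCL8 was the most like TNF in the knockout libraries (r = 0.59), followed by IL1B (0.34), NFKBIA (0.29), TNFAIP3 (0.24), NFKB1 (0.06), NFKB2 (-0.08) and CCL2 (-0.23). In the overexpression libraries the order was another, with TNFAIP3 at 0.81, IL1B at 0.79, NFKB2 at 0.72, CCL2 at 0.70, CXCL8 at 0.58, NFKB1 at 0.47 and NFKBIA at 0.33. All correlations over that series include MV4-11 OE replicate 1 and EV replicate 3. Both were above the other MV4-11 libraries of the series in TNF, FOS, TNFAIP3, NFKB2, CCL2, CXCL8 and NFKB1. No correlation was calculated without this pair, so its part in these values was not tested.

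No member differed between OE and EV past the threshold in either line. In Molm-14, 0 of the 9 genes tested differed past an FDR of 5%, by edgeR or DESeq2, and 0 had an unadjusted p under 0.05, where 0.00570% of all genes were called. That percentage belongs to the fit of both lines at once and is not a property of Molm-14. When edgeR used only the Molm-14 libraries, 154 of 15714 genes passed as higher in OE and 41 as lower. CCL5 was the only listed gene among them, and it is not a member. TNF was at 30.8, 39.7 and 39.8 CPM in OE and at 39.8, 38.1 and 33.3 CPM in EV (log2 fold change -0.02 ± 0.182, edgeR FDR = 1). CXCL8 had 7, 8 and 3 counts in OE against 11, 5 and 10 in EV (log2 fold change -0.60 ± 0.580), and IL1B 10, 8 and 7 against 9, 13 and 7 (-0.29 ± 0.412). CCL2, which holds the seed match, had 0 counts in all 3 OE libraries against 5, 2 and 1 in EV (edgeR FDR = 1), too few for a fold. CCL3 had 2, 1 and 2 counts in OE and 2, 0 and 1 in EV.

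NFKB1 was at 98.6, 95.0 and 95.0 CPM in Molm-14 OE against 89.1, 90.8 and 87.7 CPM in EV, and TNFAIP3 at 46.6 ± 2.66 against 41.8 ± 2.53 CPM. The OE and EV libraries did not overlap for these 2 genes, both higher, and for CCL2, lower, that is 3 of 9, beside 14.9% of all genes (7.80% higher and 7.07% lower), and the log2 fold changes of NFKB1 and TNFAIP3 were 0.11 ± 0.0695 and 0.16 ± 0.281 (edgeR FDR = 1 for both). NFKBIA (-0.04 ± 0.0772) and NFKB2 (0.01 ± 0.165) were close to 0.

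In MV4-11, 0 of the 9 genes were called by edgeR or DESeq2, where 0.177% of all genes were, and 1, IL1B, had an unadjusted p under 0.05. Of all 17542 genes tested, 1035 had an unadjusted p under 0.05. IL1B was at 9.08, 8.06 and 6.72 CPM in OE against 9.85, 8.97 and 16.1 CPM in EV, which gave a log2 change of -0.55 ± 0.203 (edgeR FDR = 0.61), or of -0.34 ± 0.197 (edgeR FDR = 0.649) without OE replicate 1 and EV replicate 3. TNF was at 38.8, 34.1 and 28.8 CPM in OE against 33.9, 31.4 and 49.1 CPM in EV, which gave a log2 change of -0.17 ± 0.181 (edgeR FDR = 1), and of -0.05 ± 0.119 without that pair. The groups overlapped in both genes.

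CCL2, the gene with the seed match, had 126, 28 and 17 counts in MV4-11 OE against 16, 20 and 80 in EV. CCL3 had 147, 20 and 2 against 12, 6 and 78. The log2 fold changes of CCL2 and CCL3 were 0.59 ± 0.986 and 0.84 ± 1.24, and 0.34 ± 0.512 and 0.28 ± 0.722 without the pair. Leaving out OE replicate 1 alone turned both directions, to -0.85 and -1.63. CXCL8 (-0.05 ± 0.336), NFKBIA (0.06 ± 0.0730), TNFAIP3 (-0.21 ± 0.283), NFKB1 (-0.01 ± 0.0729) and NFKB2 (-0.13 ± 0.159) had log2 fold changes below their error. None of the 9 genes was called without the pair.

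None of the 64 pathway genes was called in MV4-11 OE, where 3 had an unadjusted p under 0.05, or in Molm-14 OE, where 2 did, and DESeq2 called 0 in both. Of all 17542 genes tested, 1035 had such a p in MV4-11 OE and 768 in Molm-14 OE. With the Molm-14 groups fitted alone, 1 gene was called, CCL5, a T-cell and monocyte chemokine, which was at 36.0, 34.8 and 34.7 CPM in OE against 28.3, 28.9 and 30.9 CPM in EV. Over all genes, that fit called 154 higher and 41 lower of 15714. The effect of OE did not differ detectably between the lines for any of the 9 members or the 64 pathway genes (0 called by edgeR or DESeq2, and 0 members and 2 pathway genes at an unadjusted p under 0.05), where 0.0456% of all genes differed. For this difference, 929 of all 17542 genes had an unadjusted p under 0.05. Without the pair, 0 members and 0 pathway genes were called as well. For TNF this difference, MV4-11 minus Molm-14, was -0.15 ± 0.256 on the log2 scale.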

How the data were processed

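RNA was sequenced in 30 libraries of 3 AML cell lines, in 10 groups of 3. The deposited counts were whole reads assigned to Ensembl genes, with a separate table for either series. Per the labels and the study's methods, stranded ribosomal RNA-depleted libraries were trimmed with cutadapt 1.16, aligned to GRCh38 with STAR 2.7.6a and counted with featureCounts 1.6.3. Whether counting used the strand is not given in the sources used here, so reads of overlapping antisense genes cannot be told apart. Groups and replicate numbers came from the sample titles.

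The robust quasi-likelihood test of edgeR 4.0.16 (R 4.3.3) was run after filterByExpr, which left 17542 genes for overexpression and 14490 for knockout, and TMM scaling. Each series was fitted at once, with every group having its own mean. P-values were adjusted over all genes tested by the Benjamini-Hochberg method at an FDR of 5%. SE is the log2 fold change divided by the root of its F statistic. CPM use TMM-scaled totals. The median log2 fold change of all genes was within 0.02 of 0. The fits were tested on simulated counts. Alternatives were RLE factors, DESeq2 1.42.0, no filter, the compared groups alone, a replicate block, and leaving out each library.

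The 10 members, 83 other pathway genes, markers and tests were chosen with earlier results of these data known. Of the 83, 80 were in the tables, and 64 and 62 passed the filters. A comparison names the members and, of the pathway genes past the FDR, up to 6 in each direction by size (3 for THP-1). A gene that this rule also names is not reported here. Gene models came from GENCODE release 44, and promoters and miR-1 from RefSeq. The sample titles give replicate numbers but name no pairs, and the main fits used none. Same-numbered THP-1 KO and EV libraries deviated weakly together (r = 0.20, 0.11 and 0.37). So did those of THP-1 EV and MV4-11 EV (r = 0.31, 0.02 and 0.13), so these values do not settle whether libraries were paired. In each of the other comparisons, r was not positive for every replicate number. A count of 0 allows up to 3 counts, and this floor covers counting error only.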

Additional observations from a re-analysis of the deposited data

Results flagged for a closer look

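TNF was flagged because MPC1 KO and EV libraries separated in opposite directions in 2 lines. Its log2 fold change was -0.29 in MV4-11, where all 3 KO libraries were below all 3 EV libraries, and 1.35 in Molm-14, where all 3 were above. This pattern chose the genes described here, so the difference between the lines was not tested. No other member separated in opposite directions between lines under KO or OE.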

How the results depend on the processing

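Fits under RLE scaling and DESeq2, without the filter beyond 1 count, of the compared groups alone, with a replicate block, and without single libraries were compared with the values given. The number of pathway genes called, tested members included outside the MV4-11 and Molm-14 KO comparisons, moved by over 1.5 times in few cases. In Molm-14 OE it was 1 instead of 0 when only the compared groups were fitted. Calls over all genes then went from 1 higher and 0 lower of 17542 to 154 higher and 41 lower of 15714. In MV4-11 KO it was 5 instead of 3 without the filter and 5 with the replicate block. Over all genes, the main fit called 460 higher and 324 lower of 14490. Without the filter it was 503 and 525 of 34732, and with the block 896 and 578 of 14490. Leaving out 1 library gave 1 to 5 genes in MV4-11 KO and 2 to 5 in Molm-14 KO, where 5 were called. Over all genes, these fits called from 72 higher and 61 lower to 755 and 645 in MV4-11 KO. In Molm-14 KO they called from 116 higher and 67 lower to 160 and 133. The ICAM1 call also ended in MV4-11 with the block (edgeR FDR = 0.0616), and ICAM1 and BIRC2 when only the compared groups were fitted (edgeR FDR = 0.0628 and 0.0767). In THP-1 KO the block changed no call, with a TNF log2 fold change of 0.26 ± 0.305 (edgeR FDR = 0.811). The test of the difference between the OE effects needs all 4 groups, so fitting the compared groups alone gave the same fit.

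The cause of the changes was not tested. In the MV4-11 EV against Molm-14 EV comparison, the TNFAIP3 log2 difference was -0.02 without the filter, 0.00 (negative before rounding) with only the compared groups, -0.01 with the block and -0.33 without OE replicate 1 and EV replicate 3, which was chosen after seeing the data, and the TNF difference was then -0.18. Leaving out 1 library, it ranged from -0.33 to 0.20 for TNFAIP3 and from -0.18 to 0.16 for TNF. CCL2 and CCL3 there passed in DESeq2 (adjusted p = 0.00541 and 0.00691). In MV4-11 OE, leaving out 1 library gave log2 fold changes from -0.29 to 0.06 for TNF, -0.53 to 0.30 for CXCL8, -0.85 to 1.78 for CCL2, -1.63 to 2.75 for CCL3, -0.48 to 0.12 for TNFAIP3, -0.10 to 0.08 for NFKB1 and -0.31 to 0.03 for NFKB2. In Molm-14 OE the range was -0.09 to 0.10 for TNF, -0.09 to 0.02 for NFKBIA and -0.03 to 0.06 for NFKB2. In THP-1 KO it was -0.15 to 0.04 for TNFAIP3, -0.19 to 0.56 for IL1B and -0.28 to 0.14 for CXCL8. The 3 libraries a group, and the low counts of CCL2, CCL3, CXCL8 and IL1B in Molm-14, limit these values.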
